A study of Rattus norvegicus with 16 samples.

Results

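The transcripts of 4 neuropeptide genes were followed in the fetal suprachiasmatic nuclei (SCN) of the rat. They were Avp (ENSRNOG00000021229), Vip (ENSRNOG00000018808), Sst (ENSRNOG00000001837) and Penk (ENSRNOG00000008943), chosen by Ensembl identifier as 4 of the 32883 genes in the deposited count table. All 4 were measured in each of 16 RNA-Seq libraries, 8 of Group A and 8 of Group B. Both groups were fetuses of Wistar mothers that were operated on day 7 of gestation and then kept in constant darkness. Mothers of Group A had a sham operation and fed ad libitum. Mothers of Group B had their SCN destroyed by an electrolytic lesion and, from day 11, reached food for only 8 h per day. The lesion was made in the mother, so that fetuses of both groups kept their own SCN. Circadian time (CT) was set in each mother so that CT12, the start of subjective night, was the onset of activity in Group A and of food-related activity in Group B. Each library held punches of the SCN of several fetuses of 1 litter, pooled, and each group had 1 litter per time at CT0 and every 3 h up to CT21. The protocol in the labels gives pools of 8 fetuses for Group A and of 5 to 10 for Group B, while the sample titles give 8 throughout. The fetal age is embryonic day 17 by the labels and about embryonic day 19 by the methods of the study. With no second library of any group at any time, every p-value below measures the spread between litters of different times.

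Neuropeptides are cut from larger precursor proteins, stored in vesicles and released to act on receptors of other cells. In the adult SCN, vasopressin (the peptide of Avp) marks many neurons of the dorsal shell and is an output signal of the clock, and the vasopressin transcript is under the control of the clock itself. Vasoactive intestinal peptide (Vip) marks neurons of the ventral core that receive light input from the retina, and its release keeps SCN neurons in step with each other. Somatostatin (Sst), an inhibitory peptide best known for restraining growth hormone, and the enkephalins cut from proenkephalin (Penk), which are opioid peptides, are made by further SCN neurons and by many neurons elsewhere in the hypothalamus.

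Promoter sequences are shown because 2 kinds of motif tie clock and cAMP signals to such genes. The E-box CACGTG is bound by the clock factors CLOCK and BMAL1, and the cAMP response element (CRE) TGACGTCA, or its core TGACG, is bound by CREB. RefSeq windows on the GRCr8 build, from 250 bases before to 50 bases after each gene's start, were at hand for 3 of the 4 genes, Avp, Vip and Sst. A stretch of 100 bases of each is printed 5′ to 3′ on the gene's own strand, with the motif in capitals. The Avp stretch lies on the minus strand at chr3:138248634-138248733 (bases -211 to -112 from the start), the Vip stretch on the plus strand at chr1:44470337-44470436 (-143 to -44) and the Sst stretch on the plus strand at chr11:90461471-90461570 (-75 to 25).
Avp: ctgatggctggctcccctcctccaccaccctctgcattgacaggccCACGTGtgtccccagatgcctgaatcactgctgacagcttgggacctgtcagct
Vip: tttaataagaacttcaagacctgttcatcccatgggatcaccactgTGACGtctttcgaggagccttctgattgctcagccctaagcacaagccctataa
Sst: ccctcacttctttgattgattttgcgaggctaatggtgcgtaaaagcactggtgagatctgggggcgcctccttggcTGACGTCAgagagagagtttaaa

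The Avp window held the E-box at -165 to -160, a motif found on either strand in 6.42% of the 33469 windows of 300 bases in the same table. It also held the core TGACG once on the opposite strand, at -235 to -231, outside the stretch printed above. The Vip window held the core at -97 to -93 and no full element. The Sst window held the full CRE at 3 to 10, just after the listed start, where it overlaps a core on each strand. The full element stood in 1.83% of all windows and the core in 21.2%. These are matches of letters, and binding was not measured.

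Counts were scaled by trimmed mean of M-values (TMM) to CPM, the counts of a gene relative to a fixed total per library. The libraries held 10047500 to 18738585 counts in all, and their scaling factors lay between 0.975 and 1.02. A filter of at least 1.5 CPM in at least 3 libraries kept 13685 genes for testing. All 4 genes passed it, but not with equal ease. Vip (mean count 338), Sst (140) and Penk (339) were above 1.5 CPM in all 16 libraries. Avp, with a mean count of 10.8, reached 1.5 CPM in exactly 3 libraries and thus passed only through those in which it was high. In 1 library, Group A at CT3, no Avp read was counted. Counting error alone (as a coefficient of variation, CV) was 30.4% for Avp, 5.44% for Vip, 8.47% for Sst and 5.43% for Penk. Levels were not compared between the 4 genes, because transcript lengths were not used.

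Avp was near the limit of detection in most litters and high in a few. In Group A it was 0.176 CPM at CT0, 0 at CT3, 0.414 at CT6, 1.77 at CT9, 3.26 at CT12, 0.240 at CT15, 0.362 at CT18 and 0.0777 at CT21. In Group B it was 0.794 CPM at CT0, 0.276 at CT3, 3.90 at CT6, 0.535 at CT9, 0.276 at CT12, 0.269 at CT15, 1.09 at CT18 and 1.05 at CT21. The high libraries were thus those of CT9 and CT12 in Group A and that of CT6 in Group B. They held 107 of the 173 Avp counts of all libraries (61.8%), with 22, 35 and 50 counts. Each of the other 13 libraries held 0 to 12 counts and at most 1.09 CPM. Exact Poisson intervals (95%, counting error only) were 2.27 to 4.53 CPM in Group A at CT12 and 1.11 to 2.68 at CT9, and 2.89 to 5.14 in Group B at CT6. In Group A the intervals at CT12 and CT9 overlapped each other and lay above those of the other 6 times, which ended at 0.967 CPM or lower. In Group B the interval at CT6 lay above those of the other 7, which ended at 1.90 or lower. In Group A, 57 of 72 Avp counts (79.2%) came from the litters of CT9 and CT12, while 50 of 101 (49.5%) in Group B came from that of CT6. In bulk tissue, more Avp cells in a punch cannot be told apart from more Avp RNA per cell. The study describes the punches as tissue containing the SCN. Whether Avp cells of tissue around the SCN were among them was not tested.

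The other 3 peptides did not share the Avp pattern in full. Of the 3 litters with high Avp, those of Group A at CT12 and CT9 had the second and the fourth highest Penk level of the 16 libraries (33.1 and 31.8 CPM), and the litter of Group B at CT6 the eighth (27.5 CPM). Vip ranked 15, 10 and 6 of 16 in the same litters, and Sst ranked 12, 6 and 13.

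Vip was detected in every litter at 17.4 to 49.4 CPM. In Group A it was 25.8 CPM at CT0, 17.4 at CT3, 27.3 at CT6, 23.6 at CT9, 17.9 at CT12, 37.3 at CT15, 49.4 at CT18 and 23.3 at CT21. In Group B it was 41.0 CPM at CT0, 35.3 at CT3, 29.5 at CT6, 17.9 at CT9, 23.6 at CT12, 28.5 at CT15, 35.0 at CT18 and 22.02 at CT21. Group A was thus highest at CT18 and CT15, in subjective night, and Group B at CT0 and CT3, early in subjective day. The counting interval of Group A at CT18 (45.3 to 53.7 CPM) lay above that at CT15 (34.0 to 40.8), and both lay above those of the other 6 times. In Group B, by contrast, the intervals of neighbours in the order of levels overlapped throughout. The groups differed most in order at CT3, where Vip was lowest of all in Group A and second only to CT0 in Group B.

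Sst had its extremes at different times in the groups. In Group A it was 17.3 CPM at CT0, 7.51 at CT3, 15.2 at CT6, 11.3 at CT9, 9.49 at CT12, 9.84 at CT15, 13.7 at CT18 and 10.8 at CT21. In Group B it was 16.7 CPM at CT0, 11.1 at CT3, 9.20 at CT6, 7.12 at CT9, 8.84 at CT12, 20.2 at CT15, 9.87 at CT18 and 10.0 at CT21. The litters of both groups at CT0 were similar and near the top of their group, and the highest litter of all was that of Group B at CT15. Its counting interval (17.6 to 23.0 CPM) overlapped that of CT0 (14.2 to 19.4) and lay above those of the other 6 times of Group B. In Group A the intervals of neighbours in the order overlapped throughout.

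Penk was the steadiest of the 4. In Group A it was 21.1 CPM at CT0, 18.5 at CT3, 27.3 at CT6, 31.8 at CT9, 33.1 at CT12, 23.1 at CT15, 24.9 at CT18 and 26.3 at CT21. In Group B it was 24.9 CPM at CT0, 28.8 at CT3, 27.5 at CT6, 26.3 at CT9, 31.3 at CT12, 27.5 at CT15, 43.2 at CT18 and 32.1 at CT21. The top of Group A lay around the change from subjective day to subjective night. In Group B the litter of CT18 stood alone, with a counting interval of 39.4 to 47.3 CPM above those of the other 7. The litter of Group A at CT3 was the lowest of its group for all 4 peptides, which was not the case at any time in Group B.

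**Figure D1:**
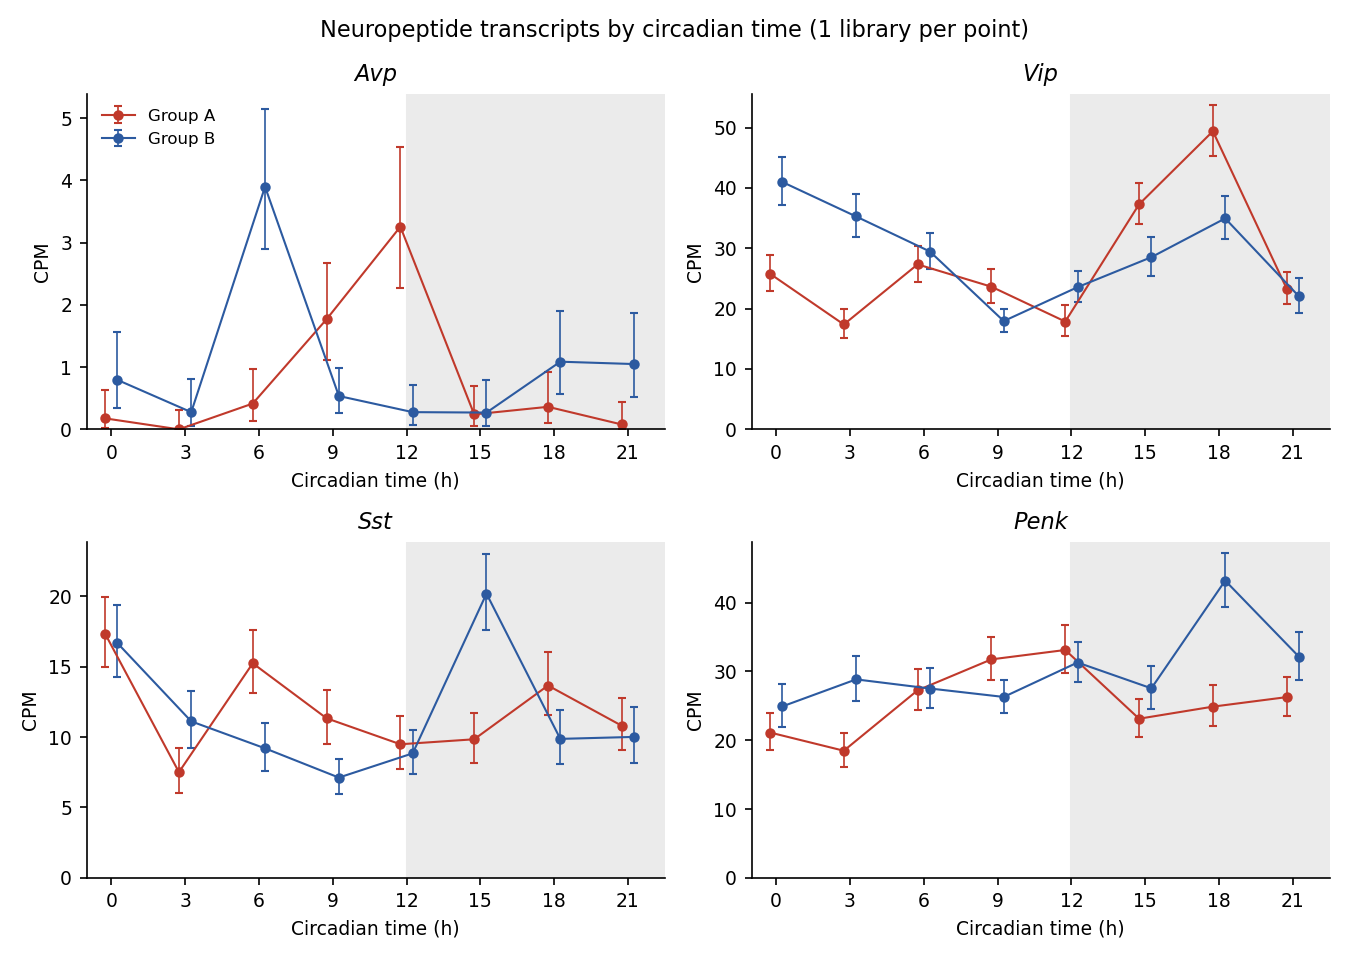
Level of each transcript (CPM, vertical axis from 0) against circadian time (h) for Group A in red and Group B in blue, with 1 library per point, 95% Poisson intervals of the counts as bars, points of the groups set slightly apart and subjective night shaded. Avp exceeded 1.5 CPM only at CT9 and CT12 in Group A and at CT6 in Group B, Vip was highest at CT18 in Group A and at CT0 in Group B, and Penk stood out at CT18 in Group B.

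The spread between litters exceeded the counting error for each of the 4 genes. The CV was taken from the mean of the variances within Group A and within Group B, relative to the mean over the 16 libraries. After removal of the counting part, it was 126.5% for Avp, 32.5% for Vip, 32.1% for Sst and 18.5% for Penk. The median over all 13685 tested genes was 9.26%. A larger value was found for 7 genes (0.0512%) in the case of Avp, 914 (6.68%) for Vip, 952 (6.96%) for Sst and 2756 (20.1%) for Penk. For Avp this rank is affected by the filter, which retained it through its high libraries. As a description over the 16 libraries, Pearson's r with the first principal component of all genes lay between -0.09 and 0.16 for the 4 transcripts, and r with the total count was -0.12 for Avp and -0.10 for Penk. For Vip and Sst r with the total count was -0.43 and -0.52, and its part in their values was not tested.

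**Figure D2:**
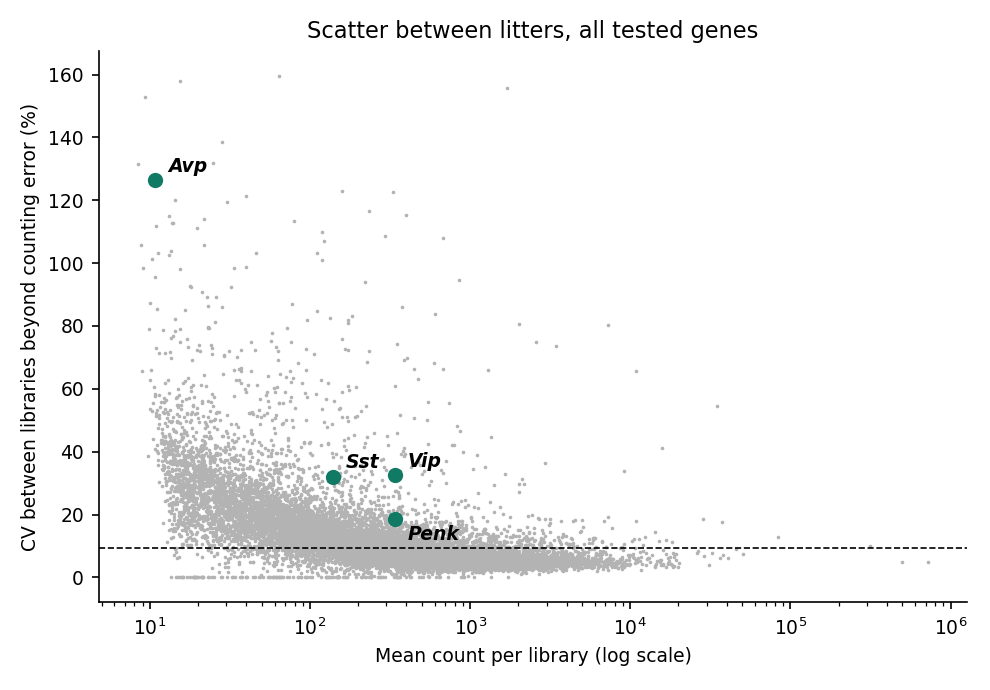
CV between libraries beyond counting error (%, vertical axis) against the mean count per library (log scale) for all 13685 tested genes (grey points), with the 4 neuropeptide genes in green and the median of all genes, 9.26%, as a dashed line. Avp lies near the top at a mean count of 10.8, Vip and Sst lie at about the same height, and Penk lies closest to the median.

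The comparison of groups asked whether loss of the maternal SCN, with food restricted in time, was accompanied by a different mean level. It was not detected for any of the 4 peptides. Avp was 0.787 CPM ± 1.15 (SD, n = 8) in Group A and 1.02 ± 1.21 in Group B, and the lowest, median and highest litters stood at 0, 0.301 and 3.26 CPM against 0.269, 0.665 and 3.90. Vip was 27.8 ± 10.7 CPM and 29.1 ± 7.74, and Sst was 11.9 ± 3.27 and 11.6 ± 4.45, in Groups A and B, respectively. Penk was 25.8 ± 5.00 CPM in Group A and 30.2 ± 5.77 in Group B. The ranges of the groups overlapped for each gene.

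On the log2 scale, the difference of Group B from Group A was 0.40 for Avp (95% interval -1.04 to 1.85), 0.06 for Vip (-0.34 to 0.46), -0.04 for Sst (-0.45 to 0.37) and 0.23 for Penk (-0.01 to 0.47). The intervals of Vip and Sst thus leave room for a change of about 0.4 either way, and that of Avp for more than 1. No gene of the 4 had an adjusted p below 0.05 by edgeR's quasi-likelihood test with Benjamini-Hochberg adjustment, nor did any of the 13685 tested (0%). The adjusted p was 0.959 for Avp, 0.978 for Vip, 0.984 for Sst and 0.876 for Penk in that test. At an unadjusted p below 0.05, 795 genes (5.81%) passed but none of the 4, and DESeq2 called 0 genes after adjustment and 772 before it, Penk among the latter. The lowest unadjusted p of the 4 was that of Penk (edgeR, 0.0632; exact permutation test of 12870 divisions, two-sided, p = 0.0996). At the same circadian time Group B exceeded Group A at 6 of 8 times for Penk, 6 for Avp, 4 for Vip and 2 for Sst. Avp depended on a single litter, since without Group B at CT6 its difference was -0.36. With a cosine of each group as covariates it was 1.37 (edgeR, unadjusted p = 0.0552, adjusted p = 0.714). The difference of Penk was 0.14 without Group B at CT18.

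**Figure D3:**
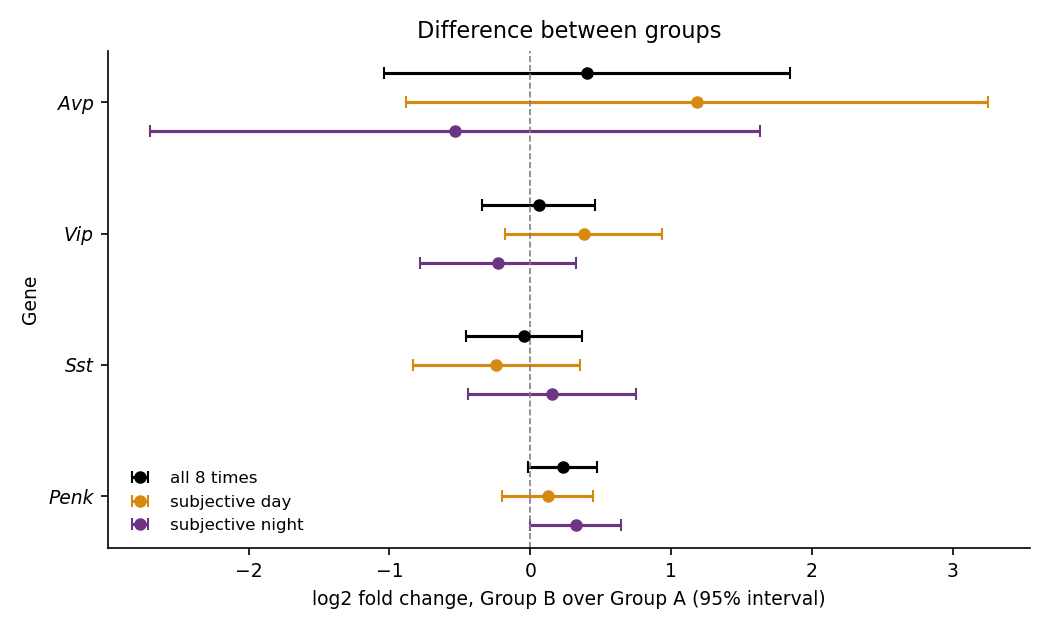
Difference of Group B from Group A (log2 fold change, horizontal axis) for each gene, with 95% intervals from edgeR, over all 8 times (black), in subjective day (orange) and in subjective night (purple). All 12 intervals reach across 0, and the lower end of that of Penk in subjective night lies just below 0 (-0.00093).

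Subjective day (CT0 to CT9) and subjective night (CT12 to CT21) were next compared within each group, with 4 litters on each side. Penk in Group B was the gene whose day and night came closest to separating. It was 26.9 ± 1.68 CPM (SD, n = 4) by day and 33.5 ± 6.74 by night, and only the night litter of CT15 fell among the day litters. The night excess was 0.32 on the log2 scale (95% interval -0.0040 to 0.64; edgeR's quasi-likelihood test with Benjamini-Hochberg adjustment, unadjusted p = 0.0526, adjusted p = 0.572). An exact permutation test gave p = 0.0571, where 0.0286 is the smallest p that 4 against 4 allows. Without the litter of CT18 the excess was 0.17. In Group A, Penk differed by 0.12 between night and day (-0.21 to 0.45), with 26.8 ± 4.37 CPM by night and 24.7 ± 5.99 by day. The difference between groups in this contrast was 0.20 (-0.26 to 0.66), within its error. Of all tested genes 4.16% lay below an unadjusted p of 0.05 in that difference and 0% below an adjusted one, and neither level held any of the 4 peptides.

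The night-day difference of Vip had opposite signs in the groups and passed no test. In Group A it was 32.0 ± 14.2 CPM by night and 23.5 ± 4.38 by day (0.44 on the log2 scale, -0.12 to 0.998), and in Group B 27.3 ± 5.83 by night and 30.9 ± 9.85 by day (-0.17, -0.72 to 0.38). The difference between these contrasts was -0.61 (-1.39 to 0.17; adjusted p = 0.996 in edgeR's test). Sst differed by -0.23 (-0.83 to 0.36) in Group A and by 0.16 (-0.43 to 0.76) in Group B. Avp differed by 0.65 between night and day for Group A and by -1.07 for Group B, both with intervals wider than 4 log2 units. It turned to -1.40 in Group A without the litter of CT12 and to 0.29 in Group B without that of CT6. None of the 4 genes was called in either group, where edgeR called 0 of all tested genes in Group A (0%) and 1 in Group B (0.00731%). At an unadjusted p below 0.05 it passed 1082 genes in Group A (7.91%) and 1195 in Group B (8.73%), and none of the 4 in either. DESeq2 called 20 and 67 genes after adjustment and again none of the 4, though it set the adjusted p to missing for Avp in both groups and for Sst in Group B. Before adjustment it put 1 of the 4 in Group B, Penk, below 0.05, where 1148 of the 13685 genes lay. In Group A it put none of the 4 there, against 1029 of all genes. Between Groups A and B within subjective night the largest of the differences in proportion to its error was that of Penk, 0.32 (-0.00093 to 0.64), with an adjusted p of 0.907 by edgeR's test. Within subjective day the differences were 1.19 for Avp, 0.38 for Vip, -0.24 for Sst and 0.12 for Penk, all with an adjusted p of 0.951 or higher in edgeR's test. In neither window did edgeR call a gene after adjustment (0% each), and before it 5.47% of all tested genes passed by night and 5.63% by day, none of the 4 among them. DESeq2 called 4 genes by night and 6 by day, again without the peptides. Before adjustment it put 687 of the 13685 genes below 0.05 by night, with 1 of the 4 among them. By day it put 736 there, with none of the 4.

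A cosine of 24 h was then fitted to ask whether the peptides followed circadian time. Fitted to both groups together, its size from trough to peak on the log2 scale was 2.16 ± 0.99 (SE) for Avp with a peak at CT9.48, 0.57 ± 0.25 for Vip at CT19.9, 0.42 ± 0.28 for Sst at CT21.0 and 0.35 ± 0.16 for Penk at CT14.3. None of the 4 passed edgeR's test (adjusted p between 0.533 and 0.755), which called 42 of all tested genes (0.307%).

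In Group A alone the cosine of Avp was the largest of the 4, 5.43 ± 1.33 from trough to peak with a peak at CT11.1. Those of Penk (0.53 ± 0.20) and Vip (0.86 ± 0.31) peaked at CT11.6 and CT17.2, and that of Sst was 0.36 ± 0.39. Before adjustment, edgeR's test put Avp (unadjusted p = 0.00246), Vip (0.0417) and Penk (0.0460) below 0.05, that is 3 of the 4 peptides, where 7.42% of all tested genes lay below it. That count dropped to 1, Avp, when the litter of Group A at CT0, CT3, CT9 or CT18 or of Group B at CT12 was left out. Avp had passed the filter only through its high litters, among them Group A at CT9 and CT12, near its fitted peak. Its place in that count, and its permutation p in Group A, are therefore not independent of the filter. After Benjamini-Hochberg adjustment over all tested genes, none of the 4 was called (adjusted p of 0.468 for Avp, 0.655 for Vip, 0.663 for Penk and 0.929 for Sst), and 1 gene of the 13685 was (0.00731%). In an exact permutation test over the 40320 orders of the litters, on log2 CPM with a prior count of 2, the share of the variance that the cosine took (R squared) was 0.690 for Avp (p = 0.0432), 0.513 for Penk (p = 0.175), 0.372 for Vip (p = 0.336) and 0.0695 for Sst (p = 0.830). On that scale the Avp cosine was smaller, 3.25 from trough to peak, and its fitted size thus depended on how the counts near 0 were treated. Without the litter of CT12, the edgeR value was 4.28.

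In Group B no cosine of the 4 genes lay below an unadjusted p of 0.05, a level that 10.7% of all tested genes passed. The sizes were 1.97 ± 1.02 for Avp, 0.67 ± 0.33 for Vip, 0.72 ± 0.40 for Sst and 0.43 ± 0.19 for Penk, with peaks at CT3.57, CT23.1, CT19.6 and CT17.7. Without the litter of CT18 the value of Penk was 0.15. The adjusted p by edgeR lay between 0.553 and 0.689, and 13 genes were called (0.0950%). The fitted peaks of each peptide thus lay several hours apart in the groups (that of Sst in Group A was CT0.390). No cosine of Group B lay below an unadjusted p of 0.05, nor did that of Sst in Group A. These peaks are therefore loosely placed, and their distance is no evidence of a shift in phase. The test of the difference between the cosines gave unadjusted p-values of 0.00808 for Avp, 0.0625 for Penk, 0.0872 for Vip and 0.473 for Sst, and adjusted ones of 0.805 or higher in edgeR's test, which called no gene (0%). Of all tested genes 838 (6.12%) were below 0.05 before adjustment, and DESeq2 called 4 genes, none of them among the 4 peptides. For Avp that share is no yardstick. The filter kept the gene only through Group A at CT9 and CT12 and Group B at CT6, and its difference of cosines used those litters.

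Model selection by the Bayes information criterion weight (BICW), the procedure of the study, assigned a gene where 1 of 5 models took a weight above 0.5. The models were no rhythm, a rhythm of Group A alone (Arhy) or of Group B alone (Brhy), a shared rhythm (ABsync) and rhythms of different size or phase (ABdiff). Avp was assigned to Arhy with a BICW of 0.761, and ABdiff took most of the rest (0.228). Of all tested genes 69.2% were assigned to no rhythm, 2.40% to Arhy, 4.30% to Brhy, 5.03% to ABsync and 0.307% to ABdiff. The Arhy share is no yardstick for Avp. The filter kept that gene only through its high litters, among them Group A at CT9 and CT12. Sst was assigned to no rhythm (0.720). Vip and Penk remained unassigned, with no rhythm leading for Vip (0.421, followed by Arhy at 0.264) and Arhy leading for Penk (0.319, followed by ABdiff at 0.247).

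The assignment of Avp depended on the error model and on 1 litter. With Gaussian fits to CPM, no rhythm led for Avp at 0.448 and Arhy had 0.321, whereas Gaussian fits to log2 CPM gave Arhy 0.761. Without the litter of Group B at CT3, ABdiff led with 0.698. Leaving out any other library kept Arhy above 0.5, at 0.585 without Group A at CT12. The lowest such value was 0.532, without Group B at CT18, where ABdiff had 0.459. These runs kept the genes that had passed the filter with all 16 libraries. Without any 1 of its 3 high litters Avp would not have passed it, so they do not show independence from those litters. Single litters also moved the other genes across 0.5. Vip was assigned to no rhythm without Group A at CT3 (0.521), CT15 (0.528) or CT18 (0.636) or Group B at CT0 (0.509), and to Arhy without Group A at CT6 (0.523) or CT12 (0.513). Penk was assigned to Arhy without Group B at CT18 (0.672) and to ABdiff without Group B at CT15 (0.513). Sst was left unassigned without Group A at CT3, where no rhythm still led (0.377), and without Group B at CT15, where no rhythm had 0.2065 and ABsync led (0.385).

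**Figure D4:**
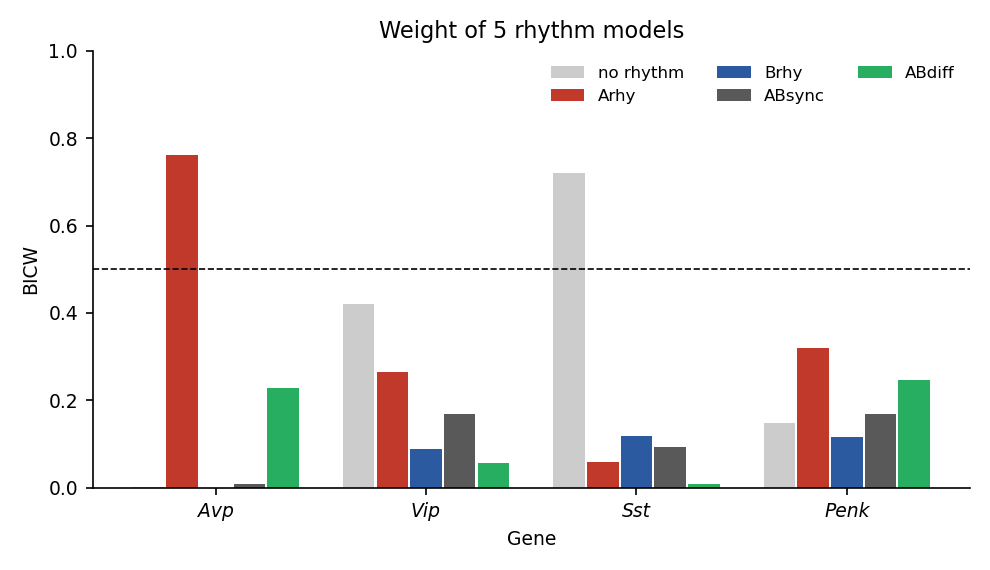
BICW (vertical axis, 0 to 1) of 5 rhythm models for each gene, with the limit of 0.5 for an assignment as a dashed line. Arhy stands at 0.761 for Avp and no rhythm at 0.720 for Sst, while no bar of Vip or Penk reaches the line.

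Whether the peptides moved together from litter to litter was examined for the 6 pairs, on log2 CPM over 16 libraries with permutation tests. Avp and Penk had the closest relation. Pearson's r was 0.605 (permutation p = 0.0126, 0.0753 after Benjamini-Hochberg adjustment over the 6 pairs) and Spearman's rho was 0.679 (p = 0.00476, adjusted 0.0286). Without the 2 litters farthest from the median of Avp, Group B at CT6 and Group A at CT12, r was 0.712 (permutation p = 0.00455, adjusted 0.0273). That check kept the litter of Group A at CT3, the lowest of all for both genes. It also kept Group B at CT18, the highest for Penk, and leaving those litters out was not tested. The relation held within Group A, with r of 0.881 (exact permutation p = 0.00451, adjusted 0.0271) and rho of 0.857 (p = 0.0107, adjusted 0.0643). Within Group B r was 0.0988 (exact permutation p = 0.784) and rho 0.119 (p = 0.793). The difference between the groups was not tested, and 10 of the 16 litters held fewer than 10 Avp counts. Each litter of a group stood for 1 circadian time. A common course over time thus cannot be told apart from other variation between litters.

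Vip and Sst followed with r of 0.499 (permutation p = 0.0497, adjusted 0.149) and rho of 0.506 (p = 0.0480, adjusted 0.144). The values within groups were similar, 0.469 in Group A and 0.588 in Group B, though neither was past 0.05 by exact permutation (p = 0.245 and p = 0.127). Without the 2 litters farthest from the median of Vip r fell to 0.386 (permutation p = 0.172), so that the relation was not held without them. The correlation of either gene with the total count is given above. For the remaining 4 pairs, r lay between -0.128 and 0.0426.

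**Figure D5:**
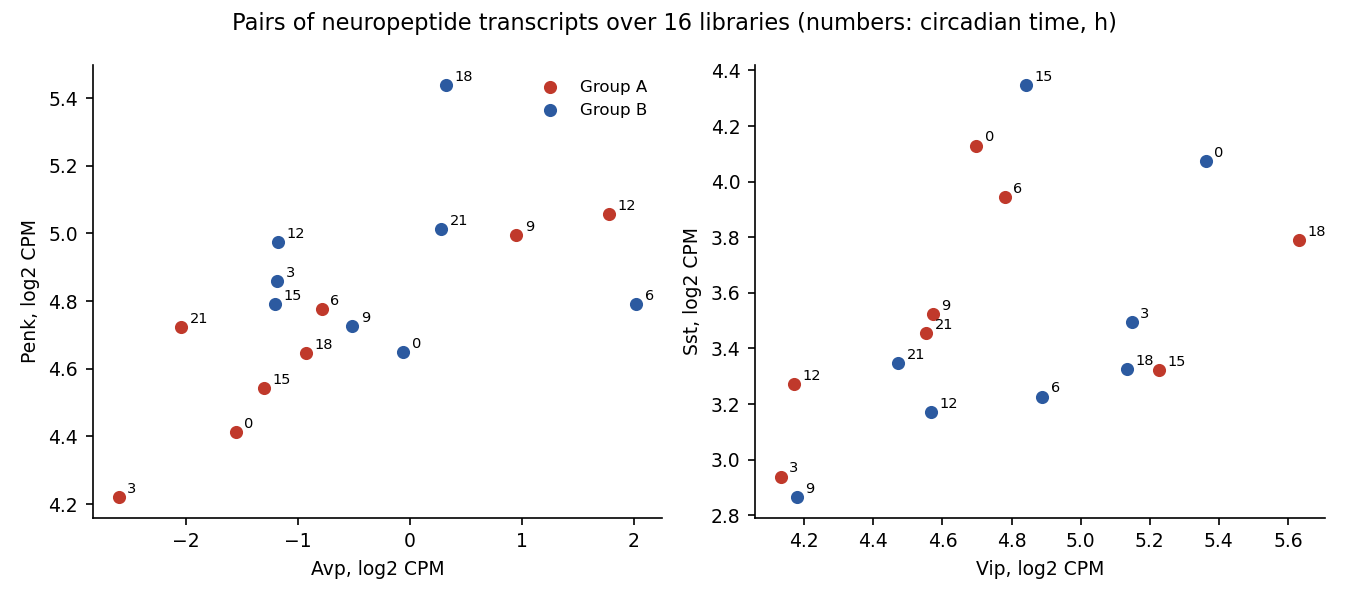
Level of Penk against Avp (left) and of Sst against Vip (right), in log2 CPM with a prior count of 2, for the 16 libraries, red for Group A and blue for Group B, each labelled with its circadian time in h. The litters of Group A climb together from CT3 at the lower left to CT12 on the left panel, where r is 0.881 in Group A and 0.0988 in Group B.

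The genes most like each peptide were sought by Pearson's r of log2 CPM over the 16 libraries among the tested genes with a mean of at least 100 counts. They are named by identifier, since the tables used here do not pair identifiers with symbols. The closest were ENSRNOG00000048725 for Avp (r = 0.753 among 9974 genes), ENSRNOG00000017857 for Vip (r = 0.809 among 9973), ENSRNOG00000010598 for Sst (r = 0.867) and ENSRNOG00000031671 for Penk (r = 0.809). No gene had an r above 0.9 with any of the 4. These values are a description, as each is the largest among all the genes searched. Receptors, processing enzymes and other hypothalamic peptides, and the marker genes that would check the punched tissue, were not analysed here for the same reason.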

How the data were processed

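RNA of pooled fetal SCN was measured in 16 libraries (8 per group, 1 per circadian time), made with a stranded low-input kit after rRNA depletion and polyA enrichment. The authors mapped the reads to rn6 (Rnor_6.0) with HISAT2 2.1.0 and named Salmon and StringTie for counting. The values they deposited are raw counts per Ensembl gene, neither normalized nor filtered. A count near 10 has a counting error of about 30.4%, and intervals cover counting error only.

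From these counts, CPM, TMM factors and quasi-likelihood tests were computed with edgeR 4.0.16 in R 4.3.3, over all 16 libraries and all 13685 genes with at least 1.5 CPM in 3 libraries, with Benjamini-Hochberg adjustment. Models by BICW were rebuilt after dryR with size factors and dispersions of DESeq2 1.42.0. Permutation tests used SciPy 1.17.1 for differences of means and NumPy 2.4.6 for cosines and correlations. They were exact for means, cosines and correlations within groups. Random resampling served the correlations over 16 libraries and those without the farthest litters. Log2 CPM carry a prior count of 2. Some of the edgeR tests and the model selection were tried on simulated data, with changes set only in genes of higher mean count than Avp. The correlations and the difference of cosines were not part of that trial.

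Alternatives were other scaling, other filters, DESeq2, Gaussian fits, edgeR dispersions, groups fitted alone, circadian time as a block, a cosine of each group as covariates and each library left out. The rule for named genes was the 4 peptides, members of lists given by symbol, and the 3 genes most like each peptide. The lists could not be matched, and 1 like gene per peptide is printed. The peptides, lists, tests and motifs were chosen with earlier results of these data, or the promoter sequences, known. Penk promoter sequence and the proteomic measurements were not analysed here.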

Additional observations from a re-analysis of the deposited data

Results flagged for a closer look

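In 2 of 8 sets of 8 litters (4 genes in 2 groups), 1 litter lay far from the others of its group by Dixon's 95% criterion, which sets the gap to the next litter against the whole range. For normally distributed litters without any effect of time, the criterion would give 0.4 such sets. That figure is nominal here, since each set spanned 8 circadian times and Avp was near 0 in most litters. Avp in Group B was 3.90 CPM at CT6, the next litter was at 1.09, and the gap was 0.775 of the range. This litter was 1 of the 3 through which Avp passed the filter. Penk in Group B was 43.2 CPM at CT18, the next litter was at 32.1, and the gap was 0.605. They were different litters, and in the litter with high Penk Avp was the second highest of Group B at 1.09 CPM.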

How the results depend on the processing

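No peptide had an adjusted p below 0.05 in any comparison of groups, of night with day or of cosines under any of 24 other settings that gave it a value. The lowest was 0.249 (Avp in Group A, edgeR, without the litter of CT15). DESeq2 called more genes than edgeR (266 against 42 for the common cosine, 26 against 1 in Group A, 133 against 13 in Group B, 20 against 0 and 67 against 1 for night and day in Groups A and B), with no peptide among them, and set the adjusted p of some peptides, such as Avp in the common and the Group A cosine, to missing. A minimum of 10 counts in every library removed Avp. Before adjustment the exact permutation test put the Avp cosine of Group A past 0.05, as edgeR did. Both tests used the high litters through which Avp passed the filter, so neither is independent of it. The number of peptides assigned to a rhythmic model was 1, 0 with Gaussian fits to CPM, and 1 to 2 with 1 library left out. The number of pairs with an adjusted p of r below 0.05 was 0, but 1 within Group A and 1 without the 2 farthest litters.

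With 1 library left out, the group difference ranged from -0.36 to 1.21 for Avp, -0.0238 to 0.23 for Vip, -0.21 to 0.0523 for Sst and 0.14 to 0.29 for Penk. The cosine ranged from 0.0411 to 0.77 for Sst in Group A and, in Group B, from 1.52 to 3.04 for Avp and 0.15 to 0.60 for Penk. Night minus day ranged from -1.40 to 2.20 (Avp, Group A), -1.41 to 0.29 (Avp, Group B), -0.19 to 0.43 (Sst, Group B) and 0.17 to 0.40 (Penk, Group B), and its difference between groups for Avp from -3.27 to 0.33. The cause was not tested. Weak correlations changed sign, Avp with Vip to 0.108 within Group B and 0.193 without the farthest litters, Avp with Sst to 0.0264 within Group A and 0.0694 without them, Sst with Penk to 0.0902 within Group A and 0.0362 without them, and Vip with Penk to -0.0791 within Group A.

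Over all tested genes at once, litters of the same circadian time did not deviate together (r between -0.161 and 0.138, 1 of 8 closest to its own time). That measure does not speak for single genes, of which 5.03% were assigned to ABsync. With circadian time as a replicate block, no peptide was called. The group difference was 0.54 for Avp, 0.09 for Vip, -0.07 for Sst and 0.23 for Penk (edgeR, unadjusted p = 0.0406, adjusted p = 0.702). With a cosine of each group as covariates it was 1.37 for Avp, 0.08 for Vip, -0.05 for Sst and 0.24 for Penk (edgeR, unadjusted p = 0.0275, adjusted p = 0.624).

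The counts of Avp limit what can be said of it, since 10 of 16 litters held fewer than 10 counts. For every peptide, litter and time are the same unit.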
